A study of Homo sapiens with 12 samples.

Results

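TCF7, TCF7L1, TCF7L2, and LEF1 make up the TCF/LEF family, the DNA-binding transcription factors of the Wnt pathway. Their probes were found on the arrays through the RefSeq accession that the files give for each probe, and all 4 genes were present. They have 6 probes in 15 spots per array, of 17237 named genes, 41000 probes, and 43376 spots that are not controls. TCF7 has 1 probe printed in 10 spots (A_23_P7582), TCF7L1 has 1 probe (A_23_P142872), LEF1 has 2 probes (A_24_P20630 and A_23_P213045), and TCF7L2 has 2 probes (A_23_P389588 and A_23_P127013), each in 1 spot outside TCF7.

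The RNA came from Ls174T, a colorectal cancer line in which Wnt signaling is constitutively active, and from HEK293T, an embryonic kidney line in which the pathway is intact and can be induced. The 12 dual-color Agilent arrays covered the whole human genome and lay on 5 slides, with 6 arrays per cell line. Ls174T cells carried si-control or siRNA against β-catenin, MLLT10/AF10, BRG1, or p300, and HEK293T cells carried si-control or siRNA against MLLT10/AF10, DOT1L, BRG1, or p300, at 15 nM for 72 h. MLLT10/AF10 is a partner of the histone H3K79 methyltransferase DOT1L, BRG1 (gene SMARCA4) is the ATPase of the SWI/SNF chromatin remodeler, and p300 (gene EP300) is a histone acetyltransferase. Each depleted HEK293T culture received Wnt3A conditioned medium for 9 h, while the si-control cells received either Wnt3A or control medium (CM) for the same time. Therefore no HEK293T depletion was measured without Wnt3A, and the labels of the Ls174T cultures name no conditioned medium. β-catenin-depleted RNA was set directly against si-control RNA on a pair of arrays with the dyes exchanged. Every other RNA was labeled with Cy3 and set against universal human reference RNA in Cy5, which gave 10 reference arrays. Each condition is thus 1 array, and the dye-exchanged pair counts as 1 replicate, so differences between conditions could not be checked against replicates or tested. Errors are those of the scanner program's error model, combined over the arrays compared, and they leave out the spread between cultures.

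TCF/LEF proteins bind DNA through an HMG box and have little activity of their own. When β-catenin is scarce they sit on target genes together with corepressors of the Groucho/TLE family, and when Wnt signaling stabilizes β-catenin they recruit it as a coactivator. TCF7 (protein TCF1) and LEF1 are themselves known as Wnt target genes, TCF7L2 (protein TCF4) is the major factor of intestinal epithelium, and TCF7L1 (protein TCF3) is best known as a repressor in embryonic cells. Since the family both carries out and responds to the Wnt signal, its transcripts were followed through the loss of β-catenin, the addition of Wnt3A, and the depletion of each coactivator.

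RefSeq (GRCh38.p14) gives 7 start sites for the 4 genes. The core of the TCF/LEF binding motif, CTTTG followed by AA, AT, TA, or TT, was searched on both strands over the 300 bases from 250 before to 50 after each start. No 2 of these 4 spellings can start at the same base of a strand. Of the 7 windows 2 held a match, 1 at the second TCF7 start and 1 at the second TCF7L2 start, while 13.8% of all 35116 windows of this length in the table did. The windows of TCF7 and LEF1 are shown because these 2 genes were lower after β-catenin depletion, with the match in capitals.

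TCF7 start 2, chr5:134123368-134123667, plus strand: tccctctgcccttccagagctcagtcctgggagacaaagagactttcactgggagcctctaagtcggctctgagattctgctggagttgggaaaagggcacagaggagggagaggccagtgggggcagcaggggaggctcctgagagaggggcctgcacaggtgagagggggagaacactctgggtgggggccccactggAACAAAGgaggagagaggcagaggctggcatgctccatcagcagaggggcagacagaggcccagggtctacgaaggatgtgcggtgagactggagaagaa

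TCF7 start 1, chr5:134115363-134115662, plus strand: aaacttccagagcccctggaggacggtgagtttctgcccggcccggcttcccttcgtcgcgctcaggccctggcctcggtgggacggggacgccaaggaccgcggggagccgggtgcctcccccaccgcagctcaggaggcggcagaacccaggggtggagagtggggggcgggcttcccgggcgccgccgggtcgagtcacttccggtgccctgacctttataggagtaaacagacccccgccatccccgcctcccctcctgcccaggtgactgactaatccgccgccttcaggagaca

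LEF1 start, chr4:108166252-108166551, minus strand: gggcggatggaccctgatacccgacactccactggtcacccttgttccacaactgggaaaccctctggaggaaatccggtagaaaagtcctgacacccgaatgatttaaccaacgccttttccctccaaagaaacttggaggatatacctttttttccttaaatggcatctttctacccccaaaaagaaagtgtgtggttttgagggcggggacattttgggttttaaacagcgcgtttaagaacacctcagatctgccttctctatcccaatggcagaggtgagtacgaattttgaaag

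The match at the second TCF7 start lies 50 to 44 bases before the start and reads CTTTGTT on the opposite strand. The first TCF7 window and the LEF1 window held none of these letters, nor did the window of TCF7L1. The match at the second TCF7L2 start lies 133 to 127 bases before it, on the strand of the gene. The files do not tell which start was used in these cells.

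The family members differed first in whether they could be measured at all. A probe was taken as measured on an array where the program called the sample channel well above background. By this call the TCF7 probe and LEF1 probe A_24_P20630 were measured on all 10 reference arrays, and the TCF7L1 probe and LEF1 probe A_23_P213045 on all 6 HEK293T arrays. In Ls174T the TCF7L1 probe was well above background on 1 of 4 arrays (BRG1 depletion), with sample signals of 1.49 to 1.71 times the local background. LEF1 probe A_23_P213045 was not well above background on any of the 4 Ls174T arrays (1.40 to 1.60 times). The plot of sample signals shows the same division by probe and line.

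**Figure D1:**
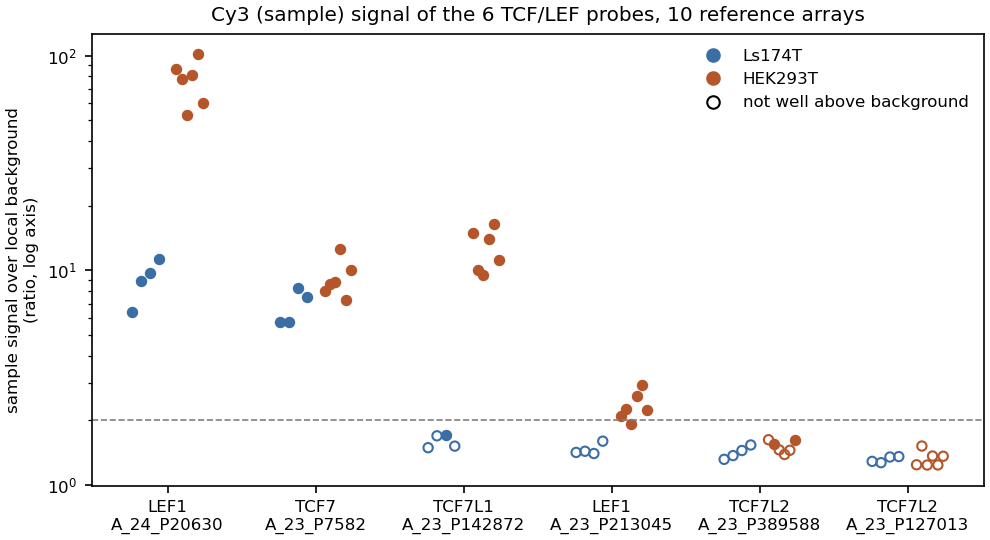
Median Cy3 signal of the sample RNA over its local background (log axis) for the 6 TCF/LEF probes, 1 point per reference array (4 Ls174T, 6 HEK293T), with open points where the program did not call the sample channel well above background and a dashed line at 2. LEF1 probe A_24_P20630 reached 101 times background in HEK293T, whereas both TCF7L2 probes stayed at 1.24 to 1.62 times on every array; levels of different probes are not comparable.

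TCF7L2, the TCF factor of intestinal epithelium, was at or near background on these arrays. Probe A_23_P127013 was not called well above background for either RNA of any reference array, and its log ratio was set to 0 by the program on 7 of 10. Probe A_23_P389588 was well above background in the sample channel only on the HEK293T si-control Wnt3A and p300 arrays. Neither probe was well-measured in any comparison, which required a signal above 2-fold the local background in either channel on every array compared. Hence no statement on TCF7L2 transcript levels in Ls174T, or on TCF7L2 changes in either line, was possible from these probes.

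Levels are given as the log2 ratio of sample over reference RNA. For TCF7 this ratio was -2.08 on the Ls174T si-control array, -2.18 in MLLT10/AF10-depleted, -2.06 in BRG1-depleted, and -1.98 in p300-depleted cells. In HEK293T it was -2.11 in CM, -1.29 with Wnt3A, and, with Wnt3A, -1.38, -1.19, -2.31, and -1.47 in MLLT10/AF10-, DOT1L-, BRG1-, and p300-depleted cells. The 6 low HEK293T and Ls174T arrays lay between -2.31 and -1.98, and the 4 high ones, all Wnt3A-treated HEK293T, between -1.47 and -1.19. Outlier spots left out reduced the 10 TCF7 spots to 8 on the BRG1 array and 9 on the p300 array of HEK293T. The SD between the spots of an array was 0.02 to 0.07 and the program error 0.23 to 0.30. The largest step in the order of the 10 arrays was 0.51 ± 0.37 (program error), between p300-depleted HEK293T and p300-depleted Ls174T cells. It was the only step past its program error, so neighbors within the high arrays, and within the low arrays, did not differ beyond it. Si-control Ls174T and si-control HEK293T cells in CM differed by -0.03 ± 0.40 (HEK293T minus Ls174T). Less TCF7 RNA per cell and fewer cells with TCF7 RNA cannot be told apart in such bulk RNA.

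**Figure D2:**
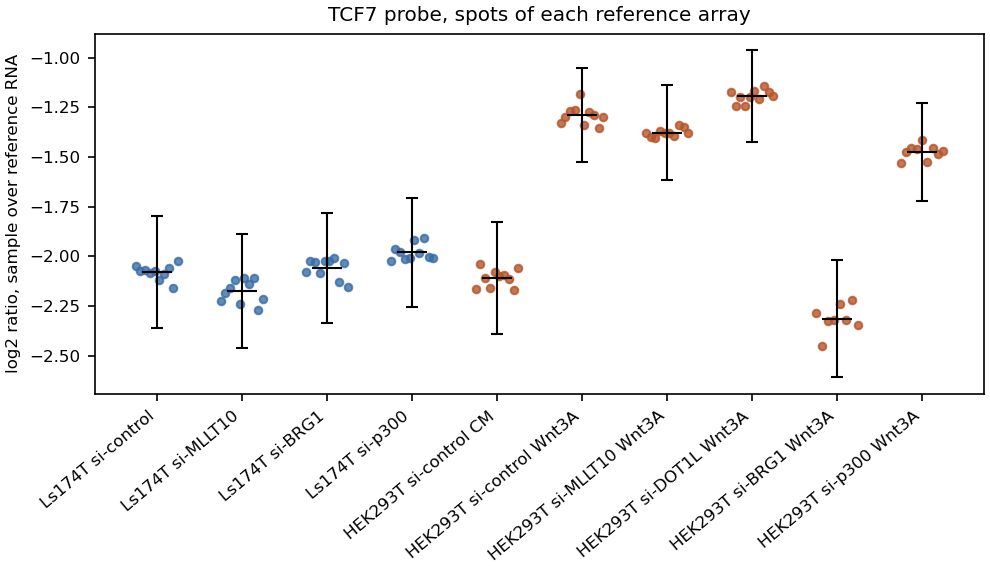
TCF7 (A_23_P7582) as the log2 ratio of sample over reference RNA on the 10 reference arrays, with each usable spot as a point (8 to 10 per array), the mean as a short line, and the program error as the bar. Wnt3A-treated HEK293T arrays sit at -1.47 to -1.19 with the exception of BRG1 depletion at -2.31, which lies with CM (-2.11) and the Ls174T arrays (-2.18 to -1.98).

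LEF1, the lymphoid enhancer-binding factor, divided the lines. On probe A_24_P20630 the log2 ratio to the reference was -4.58 on the Ls174T si-control array, -4.07 in MLLT10/AF10-depleted, -4.70 in BRG1-depleted, and -4.17 in p300-depleted cells. In HEK293T it was -1.21 in CM, -0.88 with Wnt3A, and -1.17, -0.95, -0.72, and -1.20 in Wnt3A-treated cells depleted of MLLT10/AF10, DOT1L, BRG1, and p300. The 6 HEK293T arrays were all above the 4 Ls174T arrays, and no neighbors within a line differed beyond their program error. Si-control HEK293T cells in CM exceeded si-control Ls174T cells by 3.37 ± 0.53, or 10.3-fold. The BRG1 and p300 arrays of HEK293T lie on the slide of the Ls174T si-control and MLLT10/AF10 arrays and showed the same separation. The other LEF1 probe, A_23_P213045, went the same way, with HEK293T in CM at least 3.65-fold above Ls174T si-control. This bound sets its normalized Cy3 signal in HEK293T against the lowest Ls174T si-control signal called well above background, which was higher than its own signal there.

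TCF7L1 was measured in HEK293T. Its log2 ratio was -0.32 in CM, -0.91 with Wnt3A, and -0.44, -0.43, -0.53, and -0.67 in the MLLT10/AF10, DOT1L, BRG1, and p300 depletions with Wnt3A. CM was the highest array and si-control with Wnt3A the lowest of the 6, and no 2 neighbors in the order differed beyond their program error. The probe was not well above background in si-control Ls174T cells, so the difference between the lines is an estimate against a signal near background. By normalized Cy3 signals, as for LEF1, HEK293T cells in CM were 30.6-fold above si-control Ls174T cells. By the log2 ratios to the reference the difference was 4.86 ± 0.57 (program error), or 29.0-fold. The 30.6-fold value sets HEK293T against the probe's own Ls174T signal, which was higher than the lowest signal called well above background there. Neither value is a lower bound.

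After loss of β-catenin, the 2 family probes that could be measured in Ls174T were both lower. TCF7 was 2.38-fold lower (log2 change -1.25 ± 0.19; SD between 7 spots 0.08) and LEF1 probe A_24_P20630 was 2.74-fold lower (-1.46 ± 0.18). Of all 16513 well-measured probes 1.17% were lower past 2-fold and 5.66% passed it in either direction. Therefore both measurable members fell, whereas the other 4 probes were not well above background in both RNAs of the pair and give no value.

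The arrays of the dye-exchanged pair were of unequal quality for these probes. With depleted RNA in Cy5, TCF7 was at -1.44 (spots -1.71 to -1.27, SD 0.13), and all 10 spots were well above background in both RNAs. With depleted RNA in Cy3, it was at -0.96 (spots -1.61 to -0.33, SD 0.35), and 6 and 7 of 10 spots were well above background in depleted and si-control RNA. LEF1 was at -1.40 and -1.51 in the same order. All spots of both genes were below 0 on both arrays. With normexp background correction and loess in place of the program's processing, TCF7 was at -0.72 and LEF1 at -0.95, in the same direction and short of 2-fold.

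**Figure D3:**
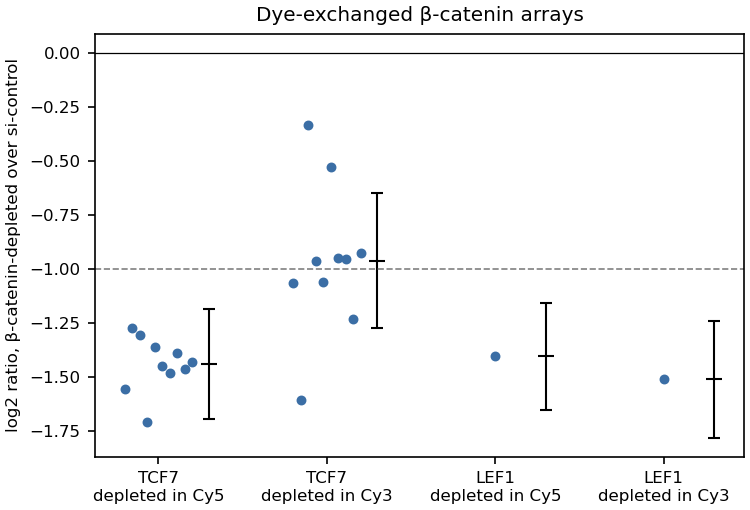
Log2 ratio of β-catenin-depleted over si-control Ls174T RNA for TCF7 (A_23_P7582, 10 spots per array) and LEF1 (A_24_P20630, 1 spot) on each array of the dye-exchanged pair, with the mean and program error beside the points and a dashed line at 2-fold. Every point lies below 0, and the TCF7 spots spread more on the array with depleted RNA in Cy3 (SD 0.35) than on the other (SD 0.13).

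Target genes on which TCF/LEF factors act were also lower after β-catenin depletion. From a list of 14 known targets, 8 of 13 well-measured probes were lower past 2-fold and 0 higher. Of all probes 1.17% were lower and 5.66% passed in either direction. The list was chosen with earlier results of these data known, so the count is a description and not a test. ASCL2, a transcription factor of crypt stem cells, changed by -2.81 ± 0.23, EPHB3, a receptor that positions crypt cells, by -2.14 ± 0.20, and AXIN2, a negative feedback scaffold, by -1.97 ± 0.19. MYC was at -1.15 ± 0.16 and the ubiquitin ligase ZNRF3 at -1.18 ± 0.17 and -1.01 ± 0.16 on its 2 probes. The remaining pair of lower probes belongs to SP5, a zinc finger repressor, and these were not well above background in every RNA compared. The third SP5 probe, A_32_P74615, was above background in all of them and was at 0.02 ± 0.18. Among 17 partners of TCF/LEF factors (β-catenin itself, TLE corepressors, BCL9 and Pygopus coactivators, CTBP corepressors, and kinases and inhibitors), 2 of 19 probes were lower, both of the siRNA target CTNNB1, and 0 higher. The median change was 0.04 over the partner probes, -1.15 over the target probes, and -0.02 over all probes.

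Depletion of the coactivators in Ls174T left TCF7 close to its si-control level. TCF7 changed by -0.10 ± 0.40 after MLLT10/AF10 depletion, by 0.02 ± 0.40 with BRG1 depleted, and by 0.10 ± 0.39 with p300 depleted, over 10 spots each with SDs of 0.06 to 0.08. These values are within the program error and short of 2-fold, a threshold that 1.75%, 5.21%, and 5.76% of all well-measured probes passed in the 3 comparisons. At this error a smaller change of TCF7 could not be detected with 1 array per condition. LEF1 probe A_24_P20630 changed by 0.51 ± 0.65, -0.11 ± 0.68, and 0.42 ± 0.65 in the same order, so the β-catenin effect on LEF1 was not seen at that size after any of the 3 depletions.

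The 1 family probe past 2-fold in these comparisons was TCF7L1 after p300 depletion (-1.30 ± 0.85), where the sample channel was not well above background on either array, so that no fold is given. MLLT10/AF10 and si-control arrays share a slide, while the BRG1 and p300 arrays lie together on another, and for those depletions slide and siRNA cannot be told apart. Within their shared slide, TCF7 differed between BRG1 and p300 depletion by -0.08 ± 0.39 and LEF1 by -0.53 ± 0.66. With normexp and loess TCF7 moved to 0.77 after BRG1 and 0.66 after p300 depletion. Replacing the local backgrounds that the program marked as outliers by the array's median before this correction kept all 3 TCF7 changes within the program error of their values above. This replacement, here and in the HEK293T comparisons below, was chosen after seeing the data.

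TCF partners and targets passed 2-fold on few probes in these Ls174T arrays. After MLLT10/AF10 depletion, where 1.75% of all probes passed, 1 of 19 target probes was lower, ASCL2 probe A_23_P105088 (-1.20 ± 0.86; its other probe -0.29 ± 0.75), and 0 of 23 partner probes passed. After BRG1 depletion, where 5.21% passed, 2 of 19 target probes were higher, both of SP5 (1.00 ± 0.54 and 1.02 ± 0.60), whereas the third SP5 probe was at -0.52 ± 0.31. A probe of the corepressor TLE4 was the 1 partner probe that passed (1.17 ± 0.59). After p300 depletion, where 5.76% passed, 2 target probes were higher and 3 lower. The higher ones were again of SP5 (1.64 ± 0.51 and 1.60 ± 0.57), with the third SP5 probe at -0.51 ± 0.31, and TLE4 was higher on the same probe as before (1.26 ± 0.58). MYC (-1.26 ± 0.31), the adhesion receptor CD44 (-1.04 ± 0.41), and ASCL2 probe A_23_P105088 (-1.03 ± 0.86) were lower, while the other ASCL2 probe was at 0.51 ± 0.81.

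In HEK293T cells TCF7 was higher with Wnt3A past the threshold, and LEF1 was not. TCF7 was 1.76-fold higher with Wnt3A than in CM (log2 change 0.82 ± 0.37), and its 10 spots ranged from 0.74 to 0.90 (SD 0.05). LEF1 changed by 0.34 ± 0.32 on probe A_24_P20630 and by 0.15 ± 0.32 on probe A_23_P213045, short of the 1.5-fold threshold (0.58 on the log2 scale) used for this line. TCF7L1 was 1.504-fold lower (-0.59 ± 0.30), at the threshold itself. Of all 27053 well-measured probes 3.77% were higher past 1.5-fold, 2.77% lower, and 6.54% either. So 1 of 4 measured family probes was higher and 1 lower, and 5 of 16 target probes were higher and 0 lower, with 0 of 24 partner probes in either direction.

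Those target probes were AXIN2 (1.08 ± 0.30), 2 of the 3 SP5 probes (0.97 ± 0.84 and 1.02 ± 0.92, the third at -0.16 ± 0.29), NKD1 (0.66 ± 0.32), an inhibitor of Dishevelled, and EPHB3 (0.62 ± 0.32). The TCF7 increase fell short of 1.5-fold from the sample channel alone (0.54), and the TCF7L1 decrease did so from that channel (-0.30), with each array centered on its median (-0.55), and with outlier backgrounds replaced before normexp and loess (-0.50). With normexp and loess on all local backgrounds TCF7 turned to -0.46, and with the outlier backgrounds replaced it was at 0.79. The si-control Wnt3A array is alone on its slide, so slide and Wnt3A cannot be told apart in this comparison.

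Depleted, Wnt3A-treated cells were also set against si-control cells in CM, which avoids the si-control Wnt3A array. Since no depleted culture received CM, these differences hold the effect of the siRNA and that of Wnt3A together. TCF7 was higher past 1.5-fold in MLLT10/AF10-depleted cells (0.73 ± 0.37, spots 0.64 to 0.82), in DOT1L-depleted cells (0.91 ± 0.36, spots 0.79 to 0.99), and in p300-depleted cells (0.63 ± 0.37, spots 0.56 to 0.70). In BRG1-depleted cells it was at -0.21 ± 0.41 (spots -0.41 to -0.05). All TCF7 spots were above CM in 3 depletions and below it after BRG1 depletion, where the value was within its program error. The spots are copies of the same probe on an array and not replicates of the condition. In either direction 7.74%, 5.76%, 11.2%, and 14.7% of all probes passed 1.5-fold after MLLT10/AF10, DOT1L, p300, and BRG1 depletion, and 4.08%, 2.94%, and 4.47% were higher in the first 3.

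The MLLT10/AF10 and DOT1L arrays share the slide of the CM array, so the TCF7 increase in these 2 comparisons was measured within a slide. The BRG1 and p300 arrays lie on another slide than CM, so slide cannot be told apart from siRNA and Wnt3A there. The values with CM share that array, and its error enters each of them. In these comparisons LEF1 probe A_24_P20630 was at 0.04 ± 0.33 after MLLT10/AF10, 0.26 ± 0.32 after DOT1L, 0.01 ± 0.33 after p300, and 0.49 ± 0.32 after BRG1 depletion. TCF7L1 was at -0.11 ± 0.29, -0.10 ± 0.29, -0.34 ± 0.30, and -0.20 ± 0.29 in the same order, so the decrease seen with si-control Wnt3A did not pass the threshold in any depletion. The value of p300-depleted cells was 0.55 for TCF7 with outlier backgrounds replaced before normexp and loess, short of 1.5-fold. With normexp and loess on all local backgrounds the 3 TCF7 increases turned to -0.59, -0.41, and -0.70 (MLLT10/AF10, DOT1L, and p300).

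Against si-control cells that also received Wnt3A, BRG1 depletion was the condition in which TCF7 passed the threshold. TCF7 was 2.01-fold lower (-1.01 ± 0.38, 8 spots from -1.15 to -0.87, SD 0.09). In this comparison 11.7% of all probes were lower past 1.5-fold and 22.0% passed it in either direction, the largest share of the 13 comparisons, so 1 lower of 4 measured family probes is read against a high background. TCF7 changed by -0.09 ± 0.34 after MLLT10/AF10 depletion, by 0.10 ± 0.33 after DOT1L depletion, and by -0.18 ± 0.34 after p300 depletion, where 7.32%, 5.62%, and 12.1% of all probes passed in either direction and 0 of 4 family probes did. Since the si-control Wnt3A array is alone on its slide, slide and siRNA cannot be told apart in these 4 comparisons. Within the slide that the BRG1 and p300 arrays share, TCF7 was lower by -0.83 ± 0.38 (log2) in BRG1- than in p300-depleted cells. The TCF7 value after BRG1 depletion was -0.25 with normexp and loess, -0.96 with outlier backgrounds replaced before that step, and -0.62 with the sample channel alone.

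LEF1 and TCF7L1 stayed short of 1.5-fold in all 4 depletions. LEF1 probe A_24_P20630 was at -0.29 ± 0.32, -0.08 ± 0.31, 0.16 ± 0.31, and -0.32 ± 0.32 after MLLT10/AF10, DOT1L, BRG1, and p300 depletion. TCF7L1 was at 0.48 ± 0.30, 0.48 ± 0.30, 0.39 ± 0.30, and 0.24 ± 0.31, above si-control in all 4, which share the si-control Wnt3A array, the lowest TCF7L1 array of the line. TCF7L2 probe A_23_P389588 had a sample signal called well above background on the si-control and p300 arrays, at 1.55 and 1.61 times the local background. On the p300 array the reference signal was not, and no change is given.

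**Figure D4:**
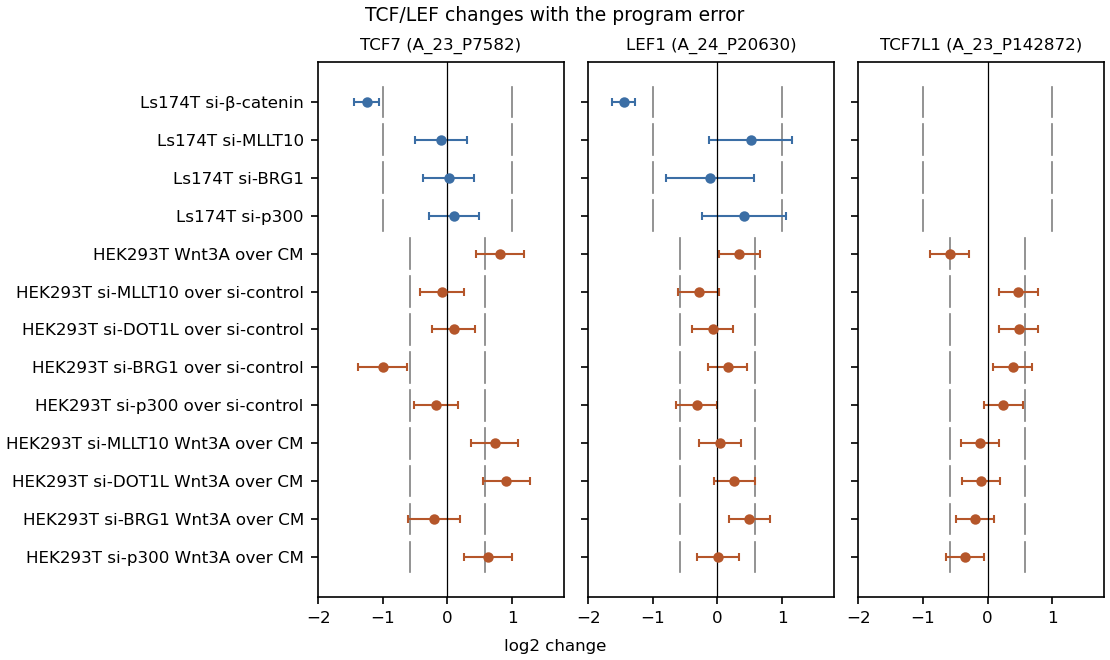
Log2 changes of TCF7, LEF1, and TCF7L1 in the 13 comparisons (points) with the program error (bars), Ls174T in blue and HEK293T in orange, and short gray lines at the fold threshold (2-fold in Ls174T, 1.5-fold in HEK293T). Values not well above background on both sides are left out, which empties the Ls174T rows of TCF7L1; TCF7 passed the line after β-catenin depletion (-1.25), BRG1 depletion in HEK293T (-1.01), and in 4 of 5 comparisons with CM (0.63 to 0.91).

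The same siRNA was used in both lines for 3 targets. The BRG1 effect on TCF7 was 0.02 ± 0.40 in Ls174T and -1.01 ± 0.38 in Wnt3A-treated HEK293T, a difference of 1.03 ± 0.55. For MLLT10/AF10 the TCF7 effects were -0.10 and -0.09, with a difference of -0.01 ± 0.52, and for p300 they differed by 0.28 ± 0.52. The LEF1 effects differed by 0.80 ± 0.72 (MLLT10/AF10), -0.27 ± 0.75 (BRG1), and 0.74 ± 0.73 (p300). SMARCA4 and EP300 were lowered less in Ls174T than in HEK293T. SMARCA4 probes changed by -2.24 to -2.53 against -3.95 to -4.00, and EP300 probes by -0.60 and -1.31 against -2.35 and -2.98. MLLT10 changed by -1.42 ± 0.33 against -1.76 ± 0.32. In both lines the BRG1 and p300 arrays lie on another slide than si-control, as does the MLLT10/AF10 array in HEK293T. Whether depletion depth or slide accounts for the differences between the lines was not tested. None of these differences was tested over replicates.

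A minority of partner probes passed the 1.5-fold threshold against si-control, and the counts are given beside the shares of all probes that passed. After BRG1 depletion 6 of 24 were lower and 1 higher, where 11.7% of all probes were lower and 22.0% passed in either direction. The lower ones were all 3 probes of TLE5, a short Groucho/TLE family member without WD repeats (-0.84 ± 0.35, -1.37 ± 0.31, and -1.23 ± 0.30), TLE2 (-0.66 ± 0.32), 1 of 3 CTBP1 probes (-0.59 ± 0.29; the others -0.54 ± 0.30 and -0.41 ± 0.31), and BCL9L (-0.67 ± 0.32). After p300 depletion, where 12.1% of all probes passed, 3 were lower and 1 higher, namely TLE2 (-0.67 ± 0.32), BCL9L (-1.07 ± 0.34), and 1 of 3 TLE5 probes (-0.68 ± 0.34; the others -0.30 ± 0.29 and -0.16 ± 0.30). After MLLT10/AF10 depletion, where 7.32% passed, 3 were lower by about the threshold, 1 TLE5 probe (-0.60 ± 0.33), 1 of 2 TLE4 probes (-0.59 ± 0.46; the other -0.02 ± 0.41), and BCL9L (-0.61 ± 0.33). After DOT1L depletion, where 5.62% passed, BCL9L was lower (-0.60 ± 0.32) and 1 probe higher. The higher probe in the BRG1 (0.60 ± 0.30), p300 (0.60 ± 0.30), and DOT1L (0.65 ± 0.30) comparisons was CTBP2 A_24_P103922, while the other CTBP2 probes were at 0.21 and 0.18, -0.34 and -0.08, and 0.06 and 0.10. BCL9L, a bridge between β-catenin and Pygopus with 1 probe, was lower in all 4 comparisons, which share the si-control Wnt3A array.

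Few target probes passed the threshold against si-control. Of 16 target probes, 3 were lower and 1 higher after BRG1 depletion, beside the 22.0% of all probes, with AXIN2 at -0.81 ± 0.29, NKD1 at -0.67 ± 0.32, CD44 at -1.38 ± 1.17, and the Frizzled-removing ubiquitin ligase RNF43 at 0.63 ± 0.30. After p300 depletion, beside 12.1% of all probes, 3 were lower, AXIN2 (-0.63 ± 0.29), the Wnt deacylase NOTUM (-0.68 ± 0.36), and CD44 (-0.78 ± 1.12). After MLLT10/AF10 depletion 1 of 2 ZNRF3 probes was higher (0.59 ± 0.32; the other -0.15 ± 0.31), beside 7.32% of all probes, and after DOT1L depletion ASCL2 was higher (0.87 ± 0.48), beside 5.62%, with 0 lower in both. The CD44 changes were about as large as their program errors.

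Against si-control cells in CM, a minority of target probes was higher in depleted, Wnt3A-treated cells. Of 16 target probes 5 were higher in MLLT10/AF10-, 6 in DOT1L-, 4 in BRG1-, and 3 in p300-depleted cells, and 2 were lower after BRG1 depletion. In either direction 7.74%, 5.76%, 14.7%, and 11.2% of all probes passed in these comparisons. AXIN2 was higher in MLLT10/AF10-depleted (0.81 ± 0.29) and DOT1L-depleted cells (0.86 ± 0.30), and ASCL2 in MLLT10/AF10- (0.62 ± 0.53), DOT1L- (1.25 ± 0.50), and p300-depleted cells (0.88 ± 0.52). TNFRSF19 was higher after MLLT10/AF10 depletion (0.60 ± 0.49), and EPHB3 (0.64 ± 0.32) and CD44 (0.77 ± 1.08) after DOT1L depletion. The same 2 of 3 SP5 probes were higher in all 4 (0.87 ± 0.93 to 1.25 ± 0.91), with the third at 0.09, 0.05, -0.45, and 0.16. After BRG1 depletion the 2 lower target probes were CD44 (-0.96 ± 1.20) and EPHB2 (-0.59 ± 0.33), while RNF43 (1.01 ± 0.31) and TNFRSF19 (0.79 ± 0.48) were higher. Of 24 partner probes 3 were lower than in CM after BRG1 depletion, all of TLE5 (-0.64 to -1.08), and 1 after p300 depletion, of TLE3 (-0.68 ± 0.32; the other probe -0.12 ± 0.30). Those values carry the error of the CM array in common.

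Genes with a pattern like TCF7 and LEF1 were sought over the 10 reference arrays after centering within each line, among 12072 other named genes with a probe well above background on every array. For TCF7 the 3 highest Pearson correlations were with DBN1 (r = 0.98), an actin-binding protein, PPP1R16A (r = 0.98), a regulatory subunit of protein phosphatase, and KIAA0930 (r = 0.97). For LEF1 probe A_24_P20630 they were with ULBP2 (r = 0.98), a ligand of the NKG2D receptor, LMO7 (r = 0.87), and TMBIM6 (r = 0.84). These are descriptions over 10 points that share the reference RNA and, in part, their slides, and the best of many genes is high by selection. The centered TCF7 values spanned 1.12 on the log2 scale and those of its 3 genes 0.42 to 0.63. Over the 6 HEK293T arrays alone KIAA0930 was again among the 3 for TCF7, and none of the 3 for LEF1 was.

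The arrays carried 27717 to 31011 well-measured features on the 10 reference arrays and 18104 to 23077 on the β-catenin pair, whose median sample signal was 1.66 to 1.73 times the local background against 2.27 to 3.47 times on the others. The siRNA target was lower past the threshold on 15 of 17 probes, the exceptions being 1 DOT1L probe (0.17) and 1 EP300 probe in Ls174T (-0.60). All 8 colorectal epithelial markers were well above background on every Ls174T reference array and 3 of 8 on every HEK293T array. Of 6 HEK293T markers 5 had a named probe, and all 5 were well above background on every HEK293T array and 2 on every Ls174T array.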

How the data were processed

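RNA of 11 conditions was measured on 12 dual-color arrays. The authors read the scans with Agilent Feature Extraction, version 10.5.1.1 per the file headers and 8.5.1.1 per the labels. The intensities they deposited give, for each spot and channel, a median signal with its local background and a processed signal, the last after background subtraction and dye normalization within the array. The deposited log10 ratios are processed Cy5 over Cy3 signal with the error of the program's error model. A table of values deposited with the series holds the same log10 ratios, with 1 array of the β-catenin pair turned. For that pair the labels name si-control RNA as the other channel, not the reference RNA of the methods, and the labels were used.

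From these, log2 ratios were computed and turned to sample over reference, or depleted over si-control, and changes are differences between arrays, or the mean of the pair. Well-measured spots, whose median signal in at least 1 channel was above 2-fold local background on each array used, were kept, outlier spots were left out, and spots of a probe were averaged. Thresholds were 2-fold (Ls174T) and 1.5-fold (HEK293T). Probes were named through a RefSeq gene table, which gave 27607 of 29084 features with a RefSeq accession a symbol. Every TCF/LEF probe is named, with the siRNA targets, the list members past the threshold, and the 3 genes most like TCF7 and LEF1. The members and the gene lists were chosen with earlier results of these data known. No feature was saturated (0), and the number of arrays limits the precision. Alternatives were normexp (offset 50) and loess in limma 3.58.1, on median signals, the sample channel alone scaled to its 75th percentile, median centering, other filters and thresholds, and the deposited table. Steps ran in Python 3.11.15 and R 4.3.3 and were tested on simulated data.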

Additional observations from a re-analysis of the deposited data

How the results depend on the processing

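Of 13 counts of TCF/LEF probes past the threshold, those of 7 changed under normexp and loess: to 0 for β-catenin depletion, 1 for BRG1 depletion in Ls174T, 1 for Wnt3A, 0 for BRG1 depletion against si-control, and 0, 1, and 2 for DOT1L, BRG1, and p300 depletion against CM. TCF7 then reversed with Wnt3A (-0.46) and against CM after MLLT10/AF10 (-0.59), DOT1L (-0.41), and p300 (-0.70) depletion, as did TCF7L1 after p300 depletion in Ls174T (1.28). With outlier backgrounds replaced, an alternative chosen after seeing the data, none reversed, and the counts that changed were 0 for β-catenin, 0 for p300 in Ls174T, 1 for Wnt3A, and 0 for p300 against CM. The sample channel alone gave 0 for p300 in Ls174T and 0 for Wnt3A, and median centering 1 for Wnt3A. For p300 in Ls174T, both stricter filters gave 0. The requirement of a sample channel well above background gave 1 for p300 against si-control in HEK293T (TCF7L2, with the reference channel of the p300 array not well above background). Without a filter on signal the counts were 1, 2, and 3 for MLLT10/AF10, BRG1, and p300 in Ls174T, 1, 2, 2, and 2 for MLLT10/AF10, DOT1L, BRG1, and p300 against si-control, and 2 for DOT1L and 2 for p300 against CM, the additional calls being TCF7L2 probes and, after BRG1 depletion in Ls174T, LEF1 probe A_23_P213045. At 1.5-fold in Ls174T the counts were 1 for MLLT10/AF10 and 2 for p300. The added calls were of LEF1 probe A_23_P213045 (-0.59 ± 0.58 and 0.82 ± 0.49). Its sample channel, like that of TCF7L1 after p300 depletion, was not well above background on either array. At 2-fold in HEK293T the counts were 0 for Wnt3A and 0 for MLLT10/AF10, DOT1L, and p300 against CM. Each array of the β-catenin pair alone gave 2 calls, over the spots well-measured on that array, with TCF7 at -1.44 to -1.02 (-0.96 over all usable spots of the second array) and LEF1 at -1.51 to -1.40. The causes of these changes were not tested. Medians over spots, outlier features kept, and the deposited table changed no count. Of 482 recomputed changes, 452 moved by less than the program error. This total includes settings that leave the value of a 1-spot probe as it was, such as medians over spots and the deposited table. Under normexp and loess, 27 of 49 changes moved by less than the program error, 17 moved by more, and 5 reversed. Normexp was run on median signals. No paired analysis was possible because each condition has 1 sample. Signals near background limit TCF7L2 on all arrays, and TCF7L1 and LEF1 probe A_23_P213045 in Ls174T.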
